A study of Rattus norvegicus with 48 samples.

Results

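Rhobtb1 (ENSRNOG00000000633) and Rapgef5 (ENSRNOG00000005271) are 2 of the 32883 genes counted in left ventricles of rats given methamphetamine or saline. They were chosen by name from the genes that rose 2-fold or more with methamphetamine in hearts from females at day 11, so their values in that comparison are a description and are given without a test. Sprague Dawley rats of both sexes, aged 8 weeks, received methamphetamine, a psychostimulant, at 5 mg/kg/day or saline by daily subcutaneous injection on 10 days, and 1 library was made per heart. Hearts were taken at day 11, which was 24 h after the last injection, or after 30 days of abstinence, which gives 8 groups with 5 libraries of saline-treated females at day 11 and 6 in each of the others, 47 in all. Rats given saline are the controls of each sex and time point. The label "small GTPase genes" holds loosely, since Rhobtb1 encodes an atypical protein with a divergent GTPase domain and Rapgef5 encodes an activator of GTPases that is not itself a GTPase.

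Small GTPases of the Ras superfamily switch between a form bound to GTP, which engages effector proteins, and a form bound to GDP. Guanine nucleotide exchange factors turn them on and GTPase-activating proteins turn them off. Rap GTPases govern adhesion of cells to each other and to the matrix. RHOBTB1 joins its GTPase domain to BTB domains, through which it binds cullin 3, the scaffold of an E3 ubiquitin ligase, and brings proteins to it for degradation; in vascular smooth muscle it is known for its part in the control of phosphodiesterase 5 and vessel tone. RAPGEF5, also called MR-GEF or GFR, is an exchange factor that loads Rap GTPases with GTP.

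Depth was 6661581 to 11314050 counts per library, with a median of 9020989. The libraries labelled replicate 5 stood apart in all 8 groups. In the 4 labelled female, the summed counts of 4 male genes were 87.6 to 118% of the median of males, whereas in the other 19 female libraries they were 0 to 2.47%. In the 4 labelled male they were 7.42 to 11.9%, against 76.1 to 117% in the other 20. Values below therefore leave out replicate 5, which keeps 39 libraries, and the value with all libraries as labelled is given beside each comparison of the 2 genes. Every rat of the saline-treated males at day 11 carried a number of a lower series, and every methamphetamine-treated male at day 11 a number of a higher one, so treatment and rat series cannot be told apart there. Each time point was sequenced as its own pool, so time and pool cannot be told apart either. In bulk tissue, fewer cells of a type and less RNA per cell cannot be told apart. Of 8 cardiomyocyte, 5 endothelial, 4 smooth muscle and 3 ventricular marker genes, none could be matched to an identifier, so the labelled tissue could not be checked with them. Of 4 atrial markers Myl4 alone could be matched, and of 5 leukocyte markers Ptprc alone. Their symbols came from the study's tables of changed genes, which list Myl4 for females at day 11 and Ptprc for females after abstinence. Shifts of these genes there are thus a description and no independent check of the tissue.

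The sequences before the annotated starts of both genes are shown because both genes were high in the same group. They are 250-base windows from RefSeq on build GRCr8, which differs from the build of the counts, and capitals mark the single match among the motifs searched. The window of Rhobtb1 is chr20:19402058-19402307 on the minus strand, and those of the 2 annotated starts of Rapgef5 are chr6:144587912-144588161 and chr6:144744492-144744741 on the plus strand.
Rhobtb1: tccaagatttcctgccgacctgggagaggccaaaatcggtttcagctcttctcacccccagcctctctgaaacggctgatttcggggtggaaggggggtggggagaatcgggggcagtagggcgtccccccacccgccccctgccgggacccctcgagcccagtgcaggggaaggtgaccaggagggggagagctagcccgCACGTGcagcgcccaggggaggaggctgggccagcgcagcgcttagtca
Rapgef5 start 1: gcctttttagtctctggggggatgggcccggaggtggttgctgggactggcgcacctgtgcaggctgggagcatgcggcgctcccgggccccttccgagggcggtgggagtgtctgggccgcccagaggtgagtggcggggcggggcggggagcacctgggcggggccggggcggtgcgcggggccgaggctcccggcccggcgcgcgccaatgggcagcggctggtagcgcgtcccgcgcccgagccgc
Rapgef5 start 2: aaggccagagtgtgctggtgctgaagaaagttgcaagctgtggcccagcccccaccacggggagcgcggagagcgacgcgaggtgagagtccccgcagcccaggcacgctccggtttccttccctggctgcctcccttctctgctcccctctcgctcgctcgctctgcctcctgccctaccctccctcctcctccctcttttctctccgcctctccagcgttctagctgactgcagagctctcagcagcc
The Rhobtb1 window holds CACGTG, the palindromic E-box that CLOCK or NPAS2 paired with BMAL1 is known to bind, at bases 202 to 207, which is 43 bases before the start. Neither Rapgef5 window holds it. Among 33469 rat windows of the same length, 5.59% hold CACGTG. Of 14 clock genes, 4 hold it in any of their windows. A gene can have several windows, so this count per gene cannot be set against the share per window. The other motifs searched on both strands were the D-boxes TTATGTAA (in 0.828% of windows) and TTACGTAA (0.108%), the ROR and REV-ERB core AGGTCA (14.1%), the glucocorticoid response element (0.012%) and the cyclic AMP response element TGACGTCA (1.59%), and none of them was in these 3 windows. The windows were 67.2%, 78.0% and 65.6% G and C in the order shown, where the median window had 51.2%. A match is a run of letters and not a mapped binding site.

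In hearts from females at day 11, both genes were high with methamphetamine and low with saline, with no overlap. Levels are in CPM, a gene's reads per 1000000 in a library after TMM scaling. Rhobtb1 stood at 51.9, 43.3, 39.6 and 48.1 CPM in the 4 saline-treated libraries and at 208, 259, 204, 250 and 167 CPM in the 5 methamphetamine-treated libraries. The lowest treated library was thus above 3 times the highest control. Rapgef5 stood at 45.3, 49.5, 47.1 and 46.7 CPM with saline and at 101, 109, 98.0, 112 and 96.6 CPM with methamphetamine. The treated libraries of Rapgef5 lay close together, at 103 ± 6.99 CPM (SD, n = 5) against 47.1 ± 1.77 CPM (SD, n = 4), whereas those of Rhobtb1 spread more widely, at 217 ± 37.4 CPM (SD, n = 5) against 45.8 ± 5.38 CPM (SD, n = 4). The log2 fold change was 2.25 (SE 0.12) for Rhobtb1 and 1.13 (SE 0.06) for Rapgef5.

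The labelled replicate 5 of the treated females lacked this rise, with 61.3 CPM of Rhobtb1 and 60.7 CPM of Rapgef5, and that of the saline-treated females had 41.7 and 51.4 CPM. With all libraries as labelled, the log2 fold changes were 2.09 (SE 0.26) and 1.00 (SE 0.12). In that form of the comparison, Rhobtb1 ranked 6 and Rapgef5 ranked 38 among the 250 genes called higher, in a comparison where 4.18% of all genes were called in either direction, and Rapgef5 was the last of 38 genes to reach 2-fold. Just inside that limit stood Dgat2, an enzyme of triglyceride synthesis, at 2.07-fold, and Rapgef5 at 2.01-fold. Just outside it stood Nr1d1, the clock repressor REV-ERBα, and ENSRNOG00000020047, both at 1.99-fold. Of 13986 genes tested without replicate 5 by edgeR's quasi-likelihood test at a Benjamini-Hochberg adjusted p under 0.1, 4.28% were called higher in this comparison. Groups did not overlap, with treated libraries the higher, for 5.16% of the genes. The atrial gene Myl4 also moved here, at 90.4, 37.3, 13.8 and 5.84 CPM in the saline-treated libraries, in the order given for the members, and 2.97 to 5.55 CPM in the treated ones. Rhobtb1 and Rapgef5 ranged from 39.6 to 51.9 CPM and from 45.3 to 49.5 CPM over those 4 saline-treated libraries. The leukocyte gene Ptprc stood at 18.8 to 21.5 CPM with saline and 17.6 to 22.8 CPM with methamphetamine. The part of Myl4 in the members' values was not tested.

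**Figure D1:**
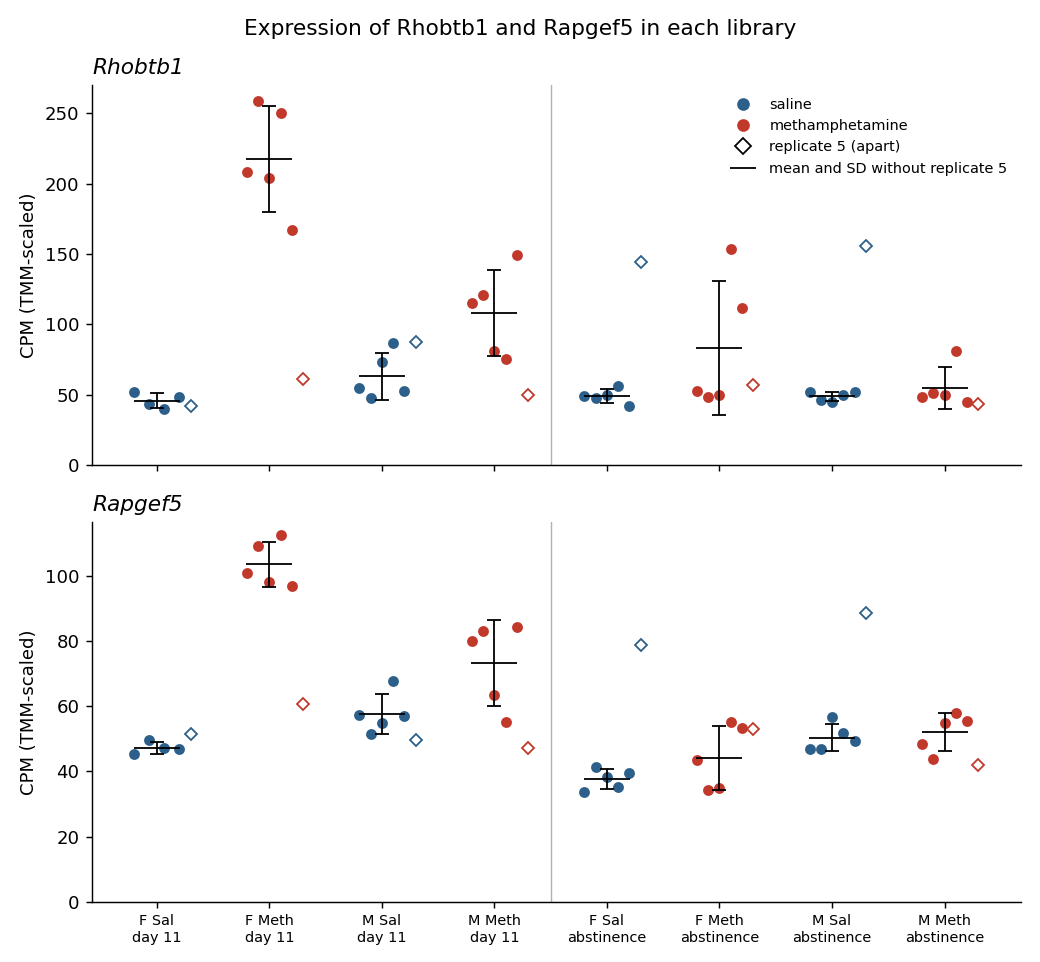
CPM of Rhobtb1 (top) and Rapgef5 (bottom) in each of 47 libraries by group, with saline in blue and methamphetamine in red. Filled circles are the 39 libraries used, open diamonds the libraries labelled replicate 5, and bars the mean and SD without replicate 5. The 5 methamphetamine-treated females at day 11 lie above every other filled circle in both plots, at 167 to 259 CPM and at 96.6 to 112 CPM.

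In hearts from males at day 11, Rhobtb1 rose less than in females and Rapgef5 did not pass the test. Rhobtb1 stood at 54.3, 47.6, 73.1, 86.9 and 52.5 CPM with saline and at 115, 121, 80.9, 75.1 and 149 CPM with methamphetamine. In 3 of 5 treated libraries it was above the highest control, while replicates 3 and 4 lay within the range of the controls. The means were 62.9 ± 16.6 and 108 ± 30.6 CPM (SD, n = 5 each), and the log2 fold change of 0.79 (SE 0.20) passed the threshold by edgeR (adjusted p = 0.0609), in a comparison where 3.37% of 13887 genes were called higher and 4.35% had treated libraries all above the controls. Rapgef5 stood at 57.3, 51.5, 54.7, 67.6 and 57.0 CPM with saline and at 79.8, 83.1, 63.3, 55.2 and 84.3 CPM with methamphetamine. The same 3 libraries, replicates 1, 2 and 6, were above the highest control. Its means were 57.6 ± 6.07 and 73.2 ± 13.1 CPM (SD, n = 5 each), with a log2 fold change of 0.35 (SE 0.12, adjusted p = 0.125 from edgeR).

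The call for Rhobtb1 in males depended on the libraries. It was lost by edgeR without saline-treated replicate 2 (adjusted p = 0.122) or 6 (adjusted p = 0.113), and without methamphetamine-treated replicate 1 (adjusted p = 0.138), 2 (adjusted p = 0.146) or 6 (adjusted p = 0.143), with log2 fold changes of 0.64 to 0.93 over all 10 libraries left out in turn. For Rapgef5 a call was gained without replicate 4 of the saline-treated (adjusted p = 0.0890) or of the methamphetamine-treated males (adjusted p = 0.0991, from edgeR). DESeq2 on the same libraries also called it (adjusted p = 0.0803), as did edgeR with all groups fitted together (adjusted p = 0.0697). With all libraries as labelled, the log2 fold changes were 0.56 for Rhobtb1 (SE 0.23, adjusted p = 0.307 from edgeR) and 0.29 for Rapgef5 (SE 0.13, adjusted p = 0.333 from edgeR), and edgeR then called 0 of 13753 genes. The labelled replicate 5 had 87.3 CPM of Rhobtb1 and 49.7 CPM of Rapgef5 in saline-treated males, and 49.8 and 47.1 CPM in methamphetamine-treated males. Thus the labelled control lay above the labelled treated library for both genes.

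Set side by side, the effect at day 11 was larger in females than in males by 1.46 on the log2 scale for Rhobtb1 (SE 0.26) and by 0.78 for Rapgef5 (SE 0.14), or 1.53 (SE 0.37) and 0.71 (SE 0.19) with all libraries as labelled. These differences use the libraries that chose the genes and are given without a test. Levels with saline were lower in females than in males by a log2 difference of -0.45 (SE 0.17) for Rhobtb1 and -0.28 (SE 0.09) for Rapgef5, while levels with methamphetamine were higher in females by 1.01 (SE 0.15) and 0.50 (SE 0.10). With all libraries as labelled these were -0.57 and -0.22 with saline and 0.96 and 0.48 with methamphetamine. The saline-treated libraries of Rhobtb1 overlapped between the sexes, at 39.6 to 51.9 CPM in females and 47.6 to 86.9 CPM in males. All saline-treated females at day 11 were of the higher rat series and all saline-treated males of the lower one, so sex and series cannot be told apart in that arm.

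**Figure D2:**
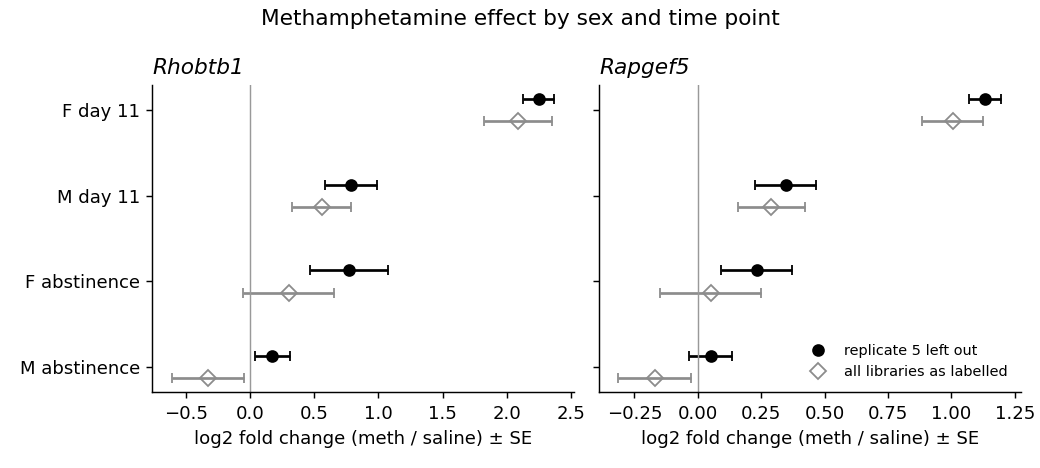
Log2 fold change of methamphetamine over saline with its SE for Rhobtb1 (left) and Rapgef5 (right), by sex and time point, without replicate 5 (black circles) and with all libraries as labelled (grey diamonds). The horizontal scales differ between the genes. The values in females at day 11 are 2.25 and 1.13, and those after abstinence in males lie on the other side of 0 when all libraries are included, at -0.33 and -0.17.

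After 30 days of abstinence, neither gene passed the test in either sex. In females, Rhobtb1 stood at 48.7, 47.7, 49.7, 55.9 and 42.2 CPM with saline and at 52.4, 48.3, 50.0, 154 and 112 CPM with methamphetamine. Only replicates 4 and 6 were above the controls, and the other 3 treated libraries lay within the range of the controls. The log2 fold change of 0.77 (SE 0.30) had an unadjusted p of 0.0244 from edgeR and an adjusted p of 0.994, in a comparison where 0% of 13610 genes were called and 541 had an unadjusted p under 0.05. It was 0.44 without methamphetamine-treated replicate 4 and 0.65 without replicate 6. Rapgef5 stood at 33.5, 41.2, 38.2, 35.3 and 39.5 CPM with saline and at 43.5, 34.4, 34.9, 54.99 and 53.2 CPM with methamphetamine. Replicates 1, 4 and 6 were above the controls, and the log2 fold change was 0.23 (SE 0.14, adjusted p = 0.994 from edgeR). It was 0.15 without methamphetamine-treated replicate 4 and 0.32 without replicate 3.

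These females mixed both series of rat numbers, with 1 of 5 saline-treated and 3 of 5 methamphetamine-treated rats in the lower one. The treated replicates 1 to 3, which were not raised for Rhobtb1, were the rats of the lower series, and replicates 4 and 6, which were, those of the higher one. With the series as a block, the log2 fold changes were 0.94 for Rhobtb1 (adjusted p = 0.828 from edgeR) and 0.37 for Rapgef5 (adjusted p = 0.847 from edgeR). The libraries labelled replicate 5 went the other way, with 144 CPM of Rhobtb1 and 78.6 CPM of Rapgef5 under saline against 56.5 and 52.8 CPM under methamphetamine. With them included, the log2 fold changes were 0.30 (SE 0.35) and 0.05 (SE 0.20), both at an adjusted p of 0.997 from edgeR. Other genes moved in replicates 4 and 6. Per2 stood at 79.6 and 65.4 CPM there against 12.6 to 23.5 CPM in replicates 1 to 3, and Arntl at 11.3 and 10.1 CPM against 26.4 to 48.5 CPM. Ptprc, which encodes the leukocyte protein CD45, stood at 45.8 CPM in replicate 4 and 34.0 CPM in replicate 6. Both values were above the 19.7 to 24.0 CPM of the controls. In replicates 1, 2 and 3 Ptprc stood at 24.6, 21.1 and 73.9 CPM. Myl4 stood at 24.2 and 6.98 CPM in replicates 4 and 6 and at 34.3 CPM in replicate 3. The part of these in the result was not tested.

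In males after abstinence, the 2 groups were closer still. Rhobtb1 stood at 51.5, 46.1, 44.6, 49.5 and 51.6 CPM with saline and at 47.9, 51.1, 50.0, 81.1 and 44.4 CPM with methamphetamine, so that replicate 4 alone was above the controls. Rapgef5 stood at 46.7, 46.9, 56.7, 51.8 and 49.2 CPM with saline and at 48.3, 43.9, 54.7, 57.8 and 55.4 CPM with methamphetamine. The log2 fold changes were 0.17 for Rhobtb1 (SE 0.14, adjusted p = 0.993 from edgeR) and 0.05 for Rapgef5 (SE 0.08, adjusted p = 0.998 from edgeR), where 0.103% of 13621 genes were called. Without replicate 4 of the treated males, that of Rhobtb1 was -0.01. With all libraries as labelled, the signs turned, to -0.33 (SE 0.28) and -0.17 (SE 0.14), both at an adjusted p of 0.999 from edgeR. The labelled saline-treated replicate 5 then had 156 CPM of Rhobtb1 and 88.5 CPM of Rapgef5, above every other male library after abstinence, and the labelled methamphetamine-treated replicate 5 had 43.3 and 41.9 CPM.

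The change of the effect with time was tested in males, whose libraries were not in the comparison that the genes were chosen from. Earlier results of these data were known at the choice, so the tests in males are not fully independent of it. The day 11 effect exceeded the effect after abstinence by 0.61 on the log2 scale for Rhobtb1 (SE 0.26, adjusted p = 0.320 from edgeR) and 0.29 for Rapgef5 (SE 0.15, adjusted p = 0.404 from edgeR), where 0.618% of 14081 genes were called. With all libraries as labelled the differences were 0.89 (adjusted p = 0.456) and 0.46 (adjusted p = 0.466). In females the same difference was 1.47 (SE 0.36) for Rhobtb1 and 0.90 (SE 0.16) for Rapgef5, or 1.80 (SE 0.48) and 0.96 (SE 0.25) with all libraries as labelled, given without a test. After abstinence, the effect in females minus that in males was 0.60 (SE 0.36) and 0.18 (SE 0.17), both at an adjusted p of 0.998 from edgeR and down to 0.26 and 0.093 without methamphetamine-treated female replicate 4, with 0% of 14020 genes called and 738 at an unadjusted p under 0.05. All libraries as labelled gave 0.62 and 0.21, both at an adjusted p of 0.999 from edgeR.

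Among saline-treated rats after abstinence, Rapgef5 was lower in females than in males and Rhobtb1 did not pass the test. All 5 saline-treated females, at 33.5 to 41.2 CPM, lay below all 5 saline-treated males, at 46.7 to 56.7 CPM. The log2 difference of Rapgef5 was -0.43 (SE 0.08, adjusted p = 0.00960 from edgeR), in a comparison where 5.24% of 13538 genes were called lower and groups did not overlap in that direction for 3.58%. The call held in each of the 10 fits that left out 1 library. With the libraries labelled replicate 5 included, at 78.6 CPM for the female and 88.5 CPM for the male, the difference was -0.36 (SE 0.20, adjusted p = 0.398 from edgeR), where 2.33% of genes were called. For Rhobtb1 the log2 difference was -0.01 (SE 0.08, adjusted p = 0.976 from edgeR), with 42.2 to 55.9 CPM in females and 44.6 to 51.6 CPM in males, and -0.05 (SE 0.35) with all libraries as labelled.

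Ordered by mean level over the 8 groups, Rhobtb1 ran from 45.8 CPM in saline-treated females at day 11 through 48.7 and 48.8 CPM in the saline-treated males and females after abstinence, 54.9 CPM in methamphetamine-treated males after abstinence, 62.9 CPM in saline-treated males at day 11 and 83.2 CPM in methamphetamine-treated females after abstinence to 108 and 217 CPM in the treated males and females at day 11. Rapgef5 ran from 37.5 CPM in saline-treated females after abstinence and 44.2 CPM in the treated females of that time to 57.6, 73.2 and 103 CPM in saline-treated males, treated males and treated females at day 11. For both genes the ranges of neighbouring groups overlapped at every step but the last, between treated males and treated females at day 11. The spread within groups was uneven. The SD of Rhobtb1 was 3.20 to 5.38 CPM in 3 of the saline groups and 16.6 CPM in saline-treated males at day 11, and it was highest, at 47.6 CPM, in methamphetamine-treated females after abstinence.

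Within groups the deviations of the 2 genes were correlated when pooled, but not alike in every group. After each group's mean was taken from its log2 CPM, the deviations of Rhobtb1 and Rapgef5 had a Pearson's r of 0.733 over 39 libraries (two-sided permutation within groups, p = 5e-04, adjusted over 6 such relations 0.00237) and a Spearman's rank correlation of 0.584 (permutation p = 0.00315, adjusted 0.0063). The products of the deviations summed to a positive value in all 4 methamphetamine groups and in saline-treated males at day 11, and to a negative one in the other 3 saline groups. Methamphetamine-treated females after abstinence gave 56.8% of the total. In that group replicates 4 and 6 differed in rat series from the other libraries, and the permutations did not keep the series apart. The p-values that include this group therefore cannot separate a shared deviation from a difference of series. Within the day 11 pool, r was 0.812 over 19 libraries (permutation p = 0.00079, adjusted 0.00237) and the rank correlation was 0.751 (permutation p = 0.00421, adjusted 0.006315). Within the abstinence pool, r was 0.688 over 20 libraries (permutation p = 0.0705, adjusted 0.0846) and the rank correlation was 0.418 (permutation p = 0.168, adjusted 0.168), so the 2 measures fell on either side of an adjusted p of 0.1. The 2 libraries farthest from the median of Rhobtb1 were methamphetamine-treated female replicates 4 and 6 after abstinence, and without them r was 0.576 (permutation p = 0.00462, n = 37). Over all 47 libraries as labelled, r was 0.841 (permutation p = 1e-05, the smallest these permutations can give). That value sets the libraries labelled replicate 5 against means of groups whose sex genes they did not share. Among them, those of saline-treated rats after abstinence lay far above the rest of their groups for both genes. The higher r is therefore no added support.

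**Figure D3:**
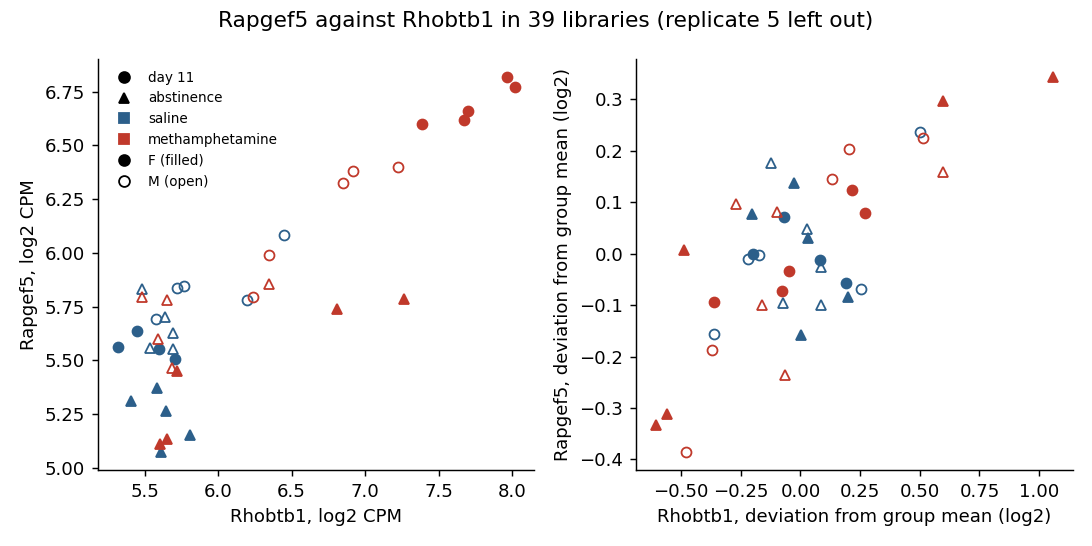
Rapgef5 against Rhobtb1 in 39 libraries, as log2 CPM (left) and as the deviation of each library from the mean of its group (right). Circles are day 11 and triangles abstinence, blue is saline and red methamphetamine, and filled symbols are females and open symbols males. On the right the deviations have an r of 0.733, and the methamphetamine-treated females after abstinence lie at both ends of the line. That group mixes both series of rat numbers.

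The 10 genes most like or most opposed to Rhobtb1 within groups included 3 of the circadian clock. These likenesses are given as a description over 39 libraries and 14457 genes, without a test. Methamphetamine-treated females after abstinence had the widest spread of Rhobtb1 (SD 0.77 in log2 CPM) and so weigh most in r by deviations. In that group the raised replicates 4 and 6 differed in rat series from the rest. No likeness was computed without them. By deviations from group means, the 5 highest r were those of Per2, a repressor of the clock (0.771), Fam46b, a poly(A) polymerase (0.769), Tef, a clock output factor that binds D-boxes (0.768), ENSRNOG00000007946 (0.767) and Cnksr1, a scaffold of Ras signalling (0.766). The 5 lowest were those of ENSRNOG00000053787 (-0.807), Calhm5, of a family of ion channels (-0.794), ENSRNOG00000025624 (-0.731), the ETS factor Elk3 (-0.706) and Npas2, an activator of the clock (-0.702). Over levels, which include the differences between groups, Per2 (0.935), Dgat2 (0.914), Tef (0.901), Herpud1, of the degradation of proteins at the endoplasmic reticulum (0.878), and ENSRNOG00000010017 (0.867) were the most alike. Arntl, which encodes BMAL1 (-0.917), Calhm5 (-0.914), Npas2 (-0.904), Slc41a3, a magnesium transporter (-0.899), and ENSRNOG00000003538 (-0.889) were the most opposed.

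Rapgef5 had fewer of the matched clock genes at its ends, where genes given by identifier alone could not be checked. Its deviations were most like those of Anks1a, an adaptor of receptor signalling (0.750), Rhobtb1 (0.733), ENSRNOG00000022929 (0.730), ENSRNOG00000060206 (0.701) and the MAP kinase phosphatase Dusp7 (0.690). They were most opposed to those of ENSRNOG00000001174 (-0.628), the RNA export factor Alyref (-0.627), ENSRNOG00000010970 (-0.626), ENSRNOG00000022431 (-0.617) and ENSRNOG00000025689 (-0.616). Over levels, the most alike were ENSRNOG00000010017 (0.879), Rhobtb1 (0.864), ENSRNOG00000001227 (0.854), Per2 (0.852) and the scaffold Ahnak (0.846), and the most opposed were Slc41a3 (-0.896), ENSRNOG00000022946 (-0.860), Klhl30 (-0.835), the thyroid hormone receptor Thra (-0.830) and Npas2 (-0.818).

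Of 17 clock gene symbols listed, which included both Arntl and its other name Bmal1, 12 could be matched. The matches came from symbols in the study's tables of genes that changed in these libraries. The activators Npas2, Arntl and Clock had r with Rhobtb1 of -0.702, -0.591 and -0.466 by deviations, and with Rapgef5 of -0.452, -0.444 and -0.261. The repressor Nfil3 stood at -0.526 and -0.353. Among the genes they drive, Per2, Tef, Cry2, Per3 and Dbp had r of 0.771, 0.768, 0.564, 0.479 and 0.436 with Rhobtb1, and of 0.583, 0.566, 0.324, 0.300 and 0.151 with Rapgef5. All but 3 of the 12 genes, which were Nr1d2 (0.228), Nr1d1 (0.119) and Cry1 (-0.182), lay outside the central 95% of all genes for Rhobtb1, which ran from -0.460 to 0.405. For Rapgef5 4 of the 12 did, outside -0.422 to 0.419. The libraries, depth and scaling factors are shared by all these genes. The r by deviations again include the methamphetamine-treated females after abstinence, whose spread of Rhobtb1 was widest and went with rat series.

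**Figure D4:**
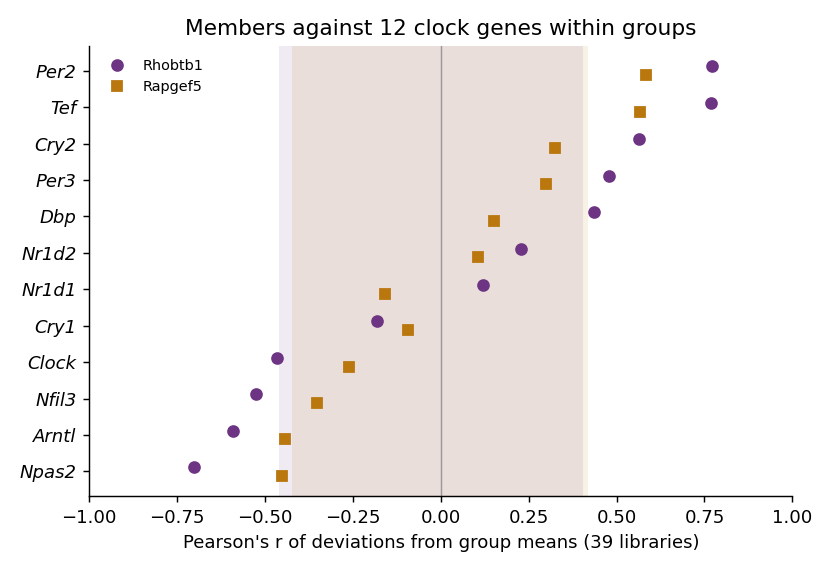
Pearson's r of deviations from group means over 39 libraries between each of 12 clock genes and Rhobtb1 (purple circles) or Rapgef5 (ochre squares). Shading spans the central 95% of r over all 14457 genes for each member. Per2 and Tef stand at the top, with 0.771 and 0.768 for Rhobtb1, and Npas2 at the bottom, with -0.702.

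In the contrasts themselves, clock genes changed where the members did and in other places too. Since these 12 were matched through tables of genes changed in these libraries, their counts are a description, and nothing is read from them against the share of all genes. At day 11, edgeR called 7 of 12 higher and 4 lower in females (where 9.43% of all genes were called in either direction), and 4 higher and 2 lower in males (against 6.54%). After abstinence it called 0 in females (against 0%) and 4 higher and 2 lower in males (against 0.0587% and 0.044% of all genes), where neither member was called. Among saline-treated rats after abstinence it called 4 higher and 2 lower in females than in males (against 9.21% in either direction and 3.97% higher). Dbp, a clock output factor, stood at 10.5 to 16.6 CPM in the saline-treated males after abstinence and at 14.4 to 95.8 CPM in the treated males, while Arntl stood at 53.7 to 69.3 and 19.7 to 54.7 CPM. In 4 of the 5 treated males, all but replicate 6, Dbp was at 62.6 CPM or more. Rhobtb1 was above its controls in replicate 4 alone. Per2 stood at 55.1 CPM in replicate 4 and at 23.8, 30.3, 30.9 and 15.3 CPM in replicates 1, 2, 3 and 6. The saline-treated males had 16.0 to 24.4 CPM of Per2. The part of the clock genes in the members' values was not tested.

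For the pathways around the members, only 2 of 84 listed genes of small GTPase pathways could be matched to an identifier, so Rap GTPases, other exchange factors for Rap and cullin 3 itself are not described. These 2 were Rhoj, a GTPase of the Cdc42 group known from endothelial cells, and Rhoc, another small GTPase. Their symbols, too, came from the study's tables of changed genes, so their calls are a description and no independent evidence. Both were called lower in females at day 11 (against 5.16% of all genes), with log2 fold changes of -0.81 for Rhoj (SE 0.09, adjusted p = 5.68e-05 from edgeR) and -0.38 for Rhoc (SE 0.08, adjusted p = 0.0101 from edgeR), and in males at day 11 (against 3.17% of all genes), with -0.55 (SE 0.11, adjusted p = 0.0363 from edgeR) and -0.53 (SE 0.10, adjusted p = 0.0243 from edgeR). With all libraries as labelled, 1 of the 2 was called in females and 0 in males. Rhoj thus went opposite to Rhobtb1 at day 11. It stood at 42.0 to 55.7 CPM in saline-treated and 23.4 to 29.2 CPM in methamphetamine-treated females, with no overlap, and at 37.2 to 61.7 and 29.5 to 35.3 CPM in males, also without overlap. Treated libraries all lay below the controls for 4.74% of genes in females and 3.42% in males. After abstinence neither gene was called in either sex.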

How the data were processed

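Polyadenylated RNA of left ventricles was sequenced as 2 x 50 base reads. Per the labels and the paper, reads were trimmed with Trimmomatic 0.38, aligned to Rnor_6.0 with HISAT2 2.1.0 and assigned by the authors to Ensembl genes with GenomicAlignments. They deposited a count per gene and library, and a normalized signal, the same counts divided by a size factor per library. Use of strand and the handling of reads shared between genes are not given in the sources used here. RefSeq lists a Rapgef5 pseudogene, so counts of Rapgef5 may include reads of that copy.

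Groups followed the labels. Counts were tested with edgeR 4.0.16 in R 4.3.3 (TMM, default filterByExpr, quasi-likelihood test), each comparison on its own libraries, with Benjamini-Hochberg adjustment over all genes and a call under 0.1. A log2 CPM used a prior count of 2. Alternatives were all libraries as labelled, DESeq2 1.42.0, RLE factors, no filter, all groups in a single fit, the replicate number or rat series as a block, limma 3.58.1 on log2 of the normalized signal plus 1, and each library left out. Within-group correlations used 100000 permutations. The edgeR fits were run on simulated data with the same dispersion for every gene, and with no rat series or wrongly labelled libraries. Those runs do not bear on these features of the real data.

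The members and lists were chosen with earlier results of these data known. Genes named were both members, list genes called in a contrast, the 5 most alike and most opposed genes of each member, and Dbp and Arntl among clock genes. Per2, Ptprc and Myl4, as examples, were picked after their values were seen. Symbols were known for 328 identifiers, from the paper's tables. The numbers behind a member were 217 to 2970 counts per library. Each library is from a separate heart. An outlying library of a saline-treated female, set aside by the study, was not used here.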

Additional observations from a re-analysis of the deposited data

Results flagged for a closer look

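Groups of 4 to 6 libraries were screened for a library far from the rest, by Dixon's test at 95%, which chance meets in about 1 in 20 groups. Of 32 screens, which cover both genes, 8 groups and both sets of libraries, 7 met it. Without replicate 5, 1 library stood apart, methamphetamine-treated male replicate 4 after abstinence, with 81.1 CPM of Rhobtb1 where the others had 44.4 to 51.1 CPM, and it did so again with all libraries as labelled. The other 5 were libraries labelled replicate 5. Rhobtb1 stood at 144 CPM in that of the saline-treated females after abstinence and at 156 CPM in that of the saline-treated males. Rapgef5 stood at 78.6 and 88.5 CPM in the same libraries, and at 60.7 CPM in that of the methamphetamine-treated females at day 11, below the others of its group.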

How the results depend on the processing

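Of 314 values computed under alternatives, 286 kept their direction and side of the threshold, or moved by less than the replicate spread or 1.5 times. Many belong to comparisons far from the threshold, so this share is no measure of robustness. Rhobtb1 in females after abstinence counted as kept at 0.29 against 0.77. Its call in males at day 11 was lost in 2 of 8 other settings and held in 5 of 10 fits that left out 1 library. Including replicate 5, by edgeR or DESeq2, moved the log2 fold change of Rapgef5 in females at day 11 to 1.00 or 1.01. It ended the calls of Rhobtb1 in males at day 11 (0.56 by edgeR and 0.56 by DESeq2) and of Rapgef5 between saline-treated sexes (-0.36 and -0.35), and it turned the signs in males after abstinence (-0.33 and -0.33 for Rhobtb1, -0.17 and -0.17 for Rapgef5). The matched GTPase genes called were then 1 by edgeR in females at day 11, and 0 by edgeR and 1 by DESeq2 in males. In males at day 11, Rapgef5 passed with DESeq2 (0.35) and in 1 fit of all groups (0.35), where adjusted p ran from 0.0697 to 0.335 over the alternatives. The fit of all groups gave 0.0027 for Rhobtb1 between saline-treated sexes.

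Over fits that left out 1 library, the log2 value ran from 0.64 to 0.93 for Rhobtb1 and from 0.29 to 0.43 for Rapgef5 in males at day 11, and from -0.013 to 0.24 for Rhobtb1 in males after abstinence. Between saline-treated sexes it ran from -0.060 to 0.051 for Rhobtb1 and from -0.46 to -0.37 for Rapgef5. The causes were not tested.

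Same-numbered replicates showed no pairing by number, as their deviations had correlations of -0.474 to 0.148 over the 4 contrasts. Per the paper, each litter was spread over all 8 groups. The sample labels do not give the litter, so pairing by litter was not tested. With the replicate number as a block, the values were 0.78 for Rhobtb1 (adjusted p = 0.0914 from edgeR) and 0.34 for Rapgef5 in males at day 11, 0.60 and 0.21 in females and 0.14 and 0.05 in males after abstinence, and 2.26 and 1.15 in females at day 11, and no call changed. The members had 217 counts or more in every library, and 4 or 5 libraries a group limit the precision.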
